A study of Mus musculus with 20 samples.

Results

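The transcription factor gene Trp53, which encodes p53, and 9 genes known as its direct targets were followed in BV-2, a line of immortalized microglia from mouse, and in a BV-2 line that the labels call RGS10 knockout. The 10 genes, Trp53, Mdm2, Cdkn1a, Bbc3, Pmaip1, Bax, Ccng1, Trp53inp1, Sesn2 and Gadd45a, were taken by symbol from a table of 56941 gene IDs. All 10 passed the filter on low counts and were among the 13755 genes tested. RGS10 is a regulator of G protein signalling, a protein that speeds up GTP hydrolysis by G protein alpha subunits. Poly(A)-enriched RNA was sequenced from 4 groups: knockout cells with interferon gamma (IFNγ, 10 ng/mL), knockout cells with medium only (vehicle), wild-type cells with IFNγ and wild-type cells with vehicle, each for 48 h. Each group held 5 biological replicates: batch 1 gave 3 of them, and batches 2 and 3 gave 1 each. The labels do not say whether replicates were separate thaws or dishes, nor whether the knockout line is 1 clone, so a difference between the lines cannot be told apart from a difference between clones, and p-values measure the spread between these libraries.

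p53 is kept scarce by MDM2, a ubiquitin ligase that marks it for degradation and is itself encoded by a p53 target, so that the pair forms a negative feedback loop. Stress that frees p53 from MDM2 lets it switch on genes that halt the cell cycle (Cdkn1a, Gadd45a, Ccng1), genes that trigger mitochondrial cell death (Bbc3, Pmaip1, Bax) and genes that tune metabolism and autophagy (Sesn2, Trp53inp1). p53 is controlled largely through its protein, which was not measured here, and several of these genes are also switched on by other factors. IFNγ is the main activating cytokine of microglia and macrophages.

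The promoters of the gene for p53 and of 3 targets are shown because these genes carry the responses described next. Each is the stretch of 250 bases before the RefSeq transcription start (build GRCm38.p6), 5′ to 3′ on the gene's strand, with matches to the p53 decamer, the 10-base unit that p53 response elements hold as a pair, in capitals. They lie at chr11:69580109-69580358 on the plus strand (Trp53), chr10:117710759-117711008 on the minus strand (Mdm2), chr17:29090729-29090978 on the plus strand (Cdkn1a) and chr6:67037408-67037657 on the minus strand (Gadd45a).
Trp53: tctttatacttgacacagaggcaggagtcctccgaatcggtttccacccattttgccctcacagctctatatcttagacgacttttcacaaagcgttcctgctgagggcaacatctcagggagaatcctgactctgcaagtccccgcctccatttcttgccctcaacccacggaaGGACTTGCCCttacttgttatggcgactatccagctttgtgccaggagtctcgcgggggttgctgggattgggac
Mdm2: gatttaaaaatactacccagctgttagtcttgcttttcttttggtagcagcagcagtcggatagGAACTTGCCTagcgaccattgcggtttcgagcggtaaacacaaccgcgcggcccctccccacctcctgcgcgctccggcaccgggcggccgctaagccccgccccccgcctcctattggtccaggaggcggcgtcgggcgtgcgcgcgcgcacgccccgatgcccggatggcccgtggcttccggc
Cdkn1a: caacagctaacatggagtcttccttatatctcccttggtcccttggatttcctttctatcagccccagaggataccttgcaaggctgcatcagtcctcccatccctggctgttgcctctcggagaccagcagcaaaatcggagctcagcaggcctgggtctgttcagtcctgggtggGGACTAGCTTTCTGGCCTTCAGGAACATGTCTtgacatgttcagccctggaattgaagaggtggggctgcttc
Gadd45a: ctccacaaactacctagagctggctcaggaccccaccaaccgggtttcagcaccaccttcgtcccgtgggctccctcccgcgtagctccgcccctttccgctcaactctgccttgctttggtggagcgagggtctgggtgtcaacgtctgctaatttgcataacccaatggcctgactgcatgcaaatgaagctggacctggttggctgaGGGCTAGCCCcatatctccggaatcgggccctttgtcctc
A decamer lay 75 to 66 bases upstream of the start in Trp53, 186 to 177 bases upstream in Mdm2 and 40 to 31 bases upstream in Gadd45a. The Cdkn1a window shown, that of the first of 2 RefSeq starts, held a pair of decamers with 12 bases between them, 73 to 42 bases upstream. Its capitals run through the whole pair. The 10 bases right after the pair miss the decamer at their first base and so stay in small letters. Which of these bases p53 binds was not tested. The window of the second start, chr17:29093519-29093768 on the plus strand, had no decamer. The table held 11 windows for 8 of the 10 genes, and 6 of these windows, those of Trp53, Mdm2, Bax, Ccng1, Gadd45a and the first Cdkn1a start, had a decamer. Over all 32851 promoter windows of the same length, 7.13% had a decamer and 0.0639% a pair 0 to 13 bases apart. None of the 11 windows had GAAANNGAAA, the motif of interferon-stimulated response elements (2.98% of all windows). Both strands were searched, and a base could count for more than 1 motif. A match is a description of the letters, and as background, well-studied p53 sites of Mdm2 and Gadd45a lie in introns, outside these windows.

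Total counts per library ran from 15866749 to 29157740. Rgs10 reads were still present in the knockout, at 22.6 to 34.6 CPM with vehicle, below the 55.1 to 73.0 CPM of wild-type vehicle cells (log2 change −1.17 ± 0.17, edgeR quasi-likelihood adjusted p = 3.23e-05). Under IFNγ, Rgs10 stood at 15.5 to 50.5 CPM in knockout and 22.2 to 49.97 CPM in wild-type cells and was not called different (adjusted p = 0.134 by edgeR), so it does not check the genotype labels there. All 14 microglia and macrophage markers averaged 1 CPM or more in every group, with 2560 to 8310 CPM summed over the list, and the lists of 5 other cell type classes summed to 17 CPM at most. The 4 IFNγ libraries of batches 2 and 3 held the most of the nuclear RNA Malat1. On plain library totals it reached 1446 and 1004 CPM in knockout and 1514 and 955 CPM in wild-type cells, in batches 2 and 3. In batch 1 it was 55.9 to 62.7 CPM in knockout IFNγ cells and 355 to 386 CPM in wild-type IFNγ cells, and vehicle libraries held 51.4 to 166 CPM. Malat1 was 1 of 5 RNA quality markers, which summed to 889 to 5750 CPM in knockout and 1750 to 6470 CPM in wild-type vehicle libraries. With IFNγ the sums were 1290 to 13800 and 4610 to 11100 CPM. Malat1, Neat1 and mt-Co1 were called higher with IFNγ in both lines by edgeR, and mt-Nd1 and mt-Cytb were called in neither. Levels are CPM, read counts relative to library sizes that were scaled by TMM, which matches libraries on the bulk of their genes. The TMM factors of the IFNγ libraries of batches 2 and 3 were 0.892 and 0.8795 in knockout and 0.6346 and 0.7643 in wild-type cells. All other libraries had 1.01 to 1.12. A factor below 1 raises CPM over its value on plain library totals. The 10 largest genes held 9.72 and 9.46% of reads in those knockout libraries and 17.1 and 14.7% in those wild-type libraries, against 3.88 to 7.86% elsewhere. A gene was called where the Benjamini-Hochberg adjusted p over all tested genes was under 0.05, and log2 changes are ± SE.

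Trp53 was lower with IFNγ in both lines, while Mdm2 was higher. Trp53 had 300.5, 297 and 287 CPM in the knockout IFNγ libraries of batch 1, 138 CPM in that of batch 2 and 117 CPM in that of batch 3, against 443, 441 and 439 CPM, 359 CPM and 424 CPM in the knockout vehicle libraries of the same batches. In wild-type cells it had 158, 167 and 171 CPM, 79.0 CPM and 127 CPM with IFNγ, against 417, 384 and 420.2 CPM, 251 CPM and 221 CPM with vehicle. No IFNγ library reached the lowest vehicle library of its own line. The change was −0.99 ± 0.16 log2 in knockout cells, a 1.99-fold fall (edgeR adjusted p = 6.72e-05), and −1.27 ± 0.16 log2 in wild-type cells, a 2.41-fold fall (adjusted p = 1.71e-06). Within batches it ranged from −0.58 to −1.85 log2 in knockout and from −0.80 to −1.66 log2 in wild-type cells. Trp53 was also lower in batches 2 and 3 than in batch 1 within each of the 4 groups, by −0.06 log2 in the knockout vehicle library of batch 3 to −1.33 log2 in the knockout IFNγ library of batch 3. In RNA from whole cultures, fewer cells that express a gene and less RNA per cell cannot be told apart.

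Mdm2 had 177, 169 and 178 CPM in the knockout IFNγ libraries of batch 1, then 381 CPM in batch 2 and 351 CPM in batch 3. The knockout vehicle libraries had 66.5, 67.8 and 68.1 CPM, 68.2 CPM and 89.9 CPM. In wild-type cells the IFNγ libraries had 304, 301 and 283 CPM, 349 CPM and 337 CPM, against 78.5, 79.5 and 76.3 CPM, 70.8 CPM and 80.8 CPM with vehicle. The IFNγ libraries thus all lay above the vehicle libraries of their line, and the 3 knockout IFNγ libraries of batch 1 lay below every wild-type IFNγ library. Mdm2 rose by 1.75 ± 0.16 log2 in knockout cells (3.37-fold, edgeR adjusted p = 8.85e-08) and by 2.01 ± 0.16 log2 in wild-type cells (4.04-fold, adjusted p = 6.97e-09). With Trp53 lower and Mdm2 higher, Mdm2 reads per Trp53 read averaged 1.51 ± 1.26 in knockout IFNγ cells and 0.172 ± 0.027 in knockout vehicle cells (SD, n = 5 each). They averaged 2.49 ± 1.14 in wild-type IFNγ cells and 0.245 ± 0.078 in wild-type vehicle cells (SD, n = 5 each). The ratio was 0.568 to 0.622 in the knockout IFNγ libraries of batch 1 and 2.76 and 3.00 in those of batches 2 and 3, the libraries with the high Malat1 levels; the part of the Malat1 difference in this split was not tested.

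**Figure D1:**
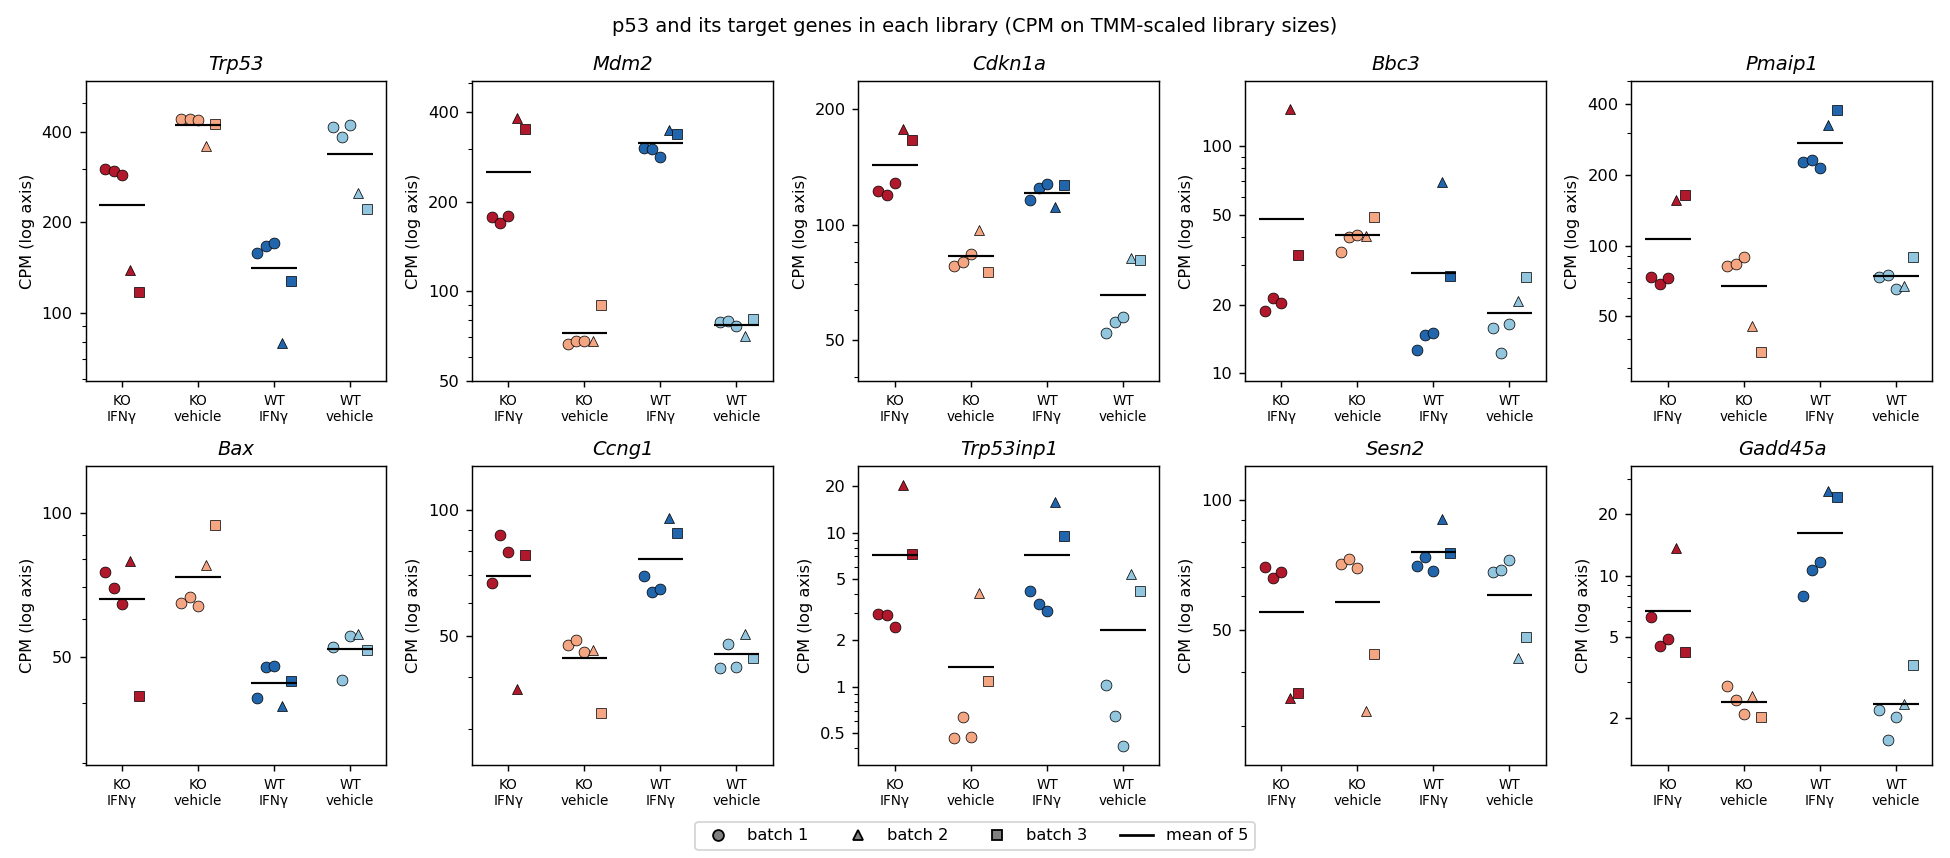
CPM on TMM-scaled library sizes for Trp53 and 9 of its target genes in each library (points, marked by batch) of the 4 groups. Lines give the mean of the 5 libraries. Trp53 lies lower and Mdm2, Cdkn1a and Gadd45a lie higher in every IFNγ library than in the vehicle libraries of the same line.

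Across the 10 genes, IFNγ raised 5 and lowered 1 in knockout cells, where edgeR called 43.2% of all genes (21.4% higher, 21.8% lower). In wild-type cells it raised 6 and lowered 1, where 58.9% of all genes were called (29.0% higher, 29.9% lower). The median log2 change of the 10 was 0.61 in knockout and 0.83 in wild-type cells, beside −0.02 and 0.01 over all genes. Mdm2, Cdkn1a, Ccng1, Trp53inp1 and Gadd45a were higher and Trp53 lower in both lines, Pmaip1 was called in wild-type cells alone, and Bbc3, Bax and Sesn2 were called in neither. With TMM scaling the IFNγ and vehicle libraries did not overlap for 4 of the 10 genes in knockout cells, against 27.6% of all genes. In wild-type cells they did not overlap for 6, against 36.2% of all genes. On plain library totals 38.5% of all calls in knockout and 36.7% in wild-type cells were increases, against 49.5% and 49.2% with TMM, and the median of all genes lay at −0.16 and −0.21 log2. No call of the 10 changed sign with that scaling. In batch 1 alone 5 genes were higher and 3 lower in knockout cells, where that fit called 56.6% of all genes, and 6 higher and 1 lower in wild-type cells, where it called 74.0% of all genes. Here and below, p-values from batch 1 alone measure the spread of 3 libraries a group within that batch, not the spread between batches.

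**Figure D2:**
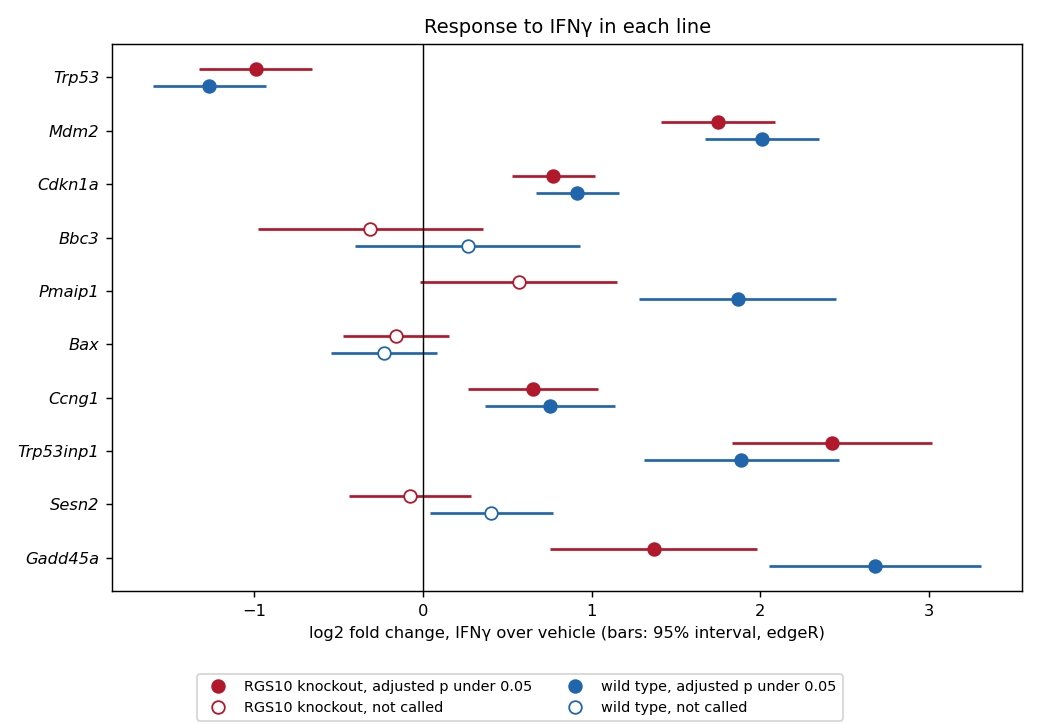
Log2 fold change of each gene, IFNγ over vehicle, in RGS10 knockout and wild-type cells, with 95% intervals from edgeR; filled points passed an adjusted p of 0.05. Gadd45a and Pmaip1 are the genes whose point lies furthest to the right in wild-type relative to knockout cells.

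Among the genes that halt the cell cycle, Cdkn1a encodes p21, an inhibitor of cyclin-dependent kinases. It had 122, 120 and 129 CPM, 178 CPM and 167 CPM in the knockout IFNγ libraries of batches 1, 2 and 3, against 78.0, 80.0 and 83.9 CPM, 96.6 CPM and 75.2 CPM with vehicle. Wild-type libraries had 116, 125 and 127 CPM, 111 CPM and 127 CPM with IFNγ, against 52.3, 55.9 and 57.5 CPM, 81.7 CPM and 81.1 CPM with vehicle. With TMM scaling all IFNγ libraries lay above all vehicle libraries of either line. On plain library totals the wild-type IFNγ library of batch 2 had 70.6 CPM, below the 89.4 CPM of the wild-type vehicle library of that batch. In batch 3 these were 96.9 CPM with IFNγ and 87.9 CPM with vehicle. Cdkn1a rose by 0.77 ± 0.12 log2 in knockout cells (1.71-fold, edgeR adjusted p = 3.29e-05) and by 0.91 ± 0.12 log2 in wild-type cells (1.89-fold, adjusted p = 1.97e-06). The wild-type change was 1.15 log2 in batch 1 but 0.44 and 0.64 log2 in batches 2 and 3, and in those batches alone it was not called (0.56 log2, edgeR adjusted p = 0.0908). A gene of unassigned type overlaps 273 exonic bases of Cdkn1a on the opposite strand, with 126 reads in all against 46017 for Cdkn1a.

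Gadd45a, whose small stress protein binds p21 and PCNA and activates stress kinases, was scarce with vehicle and rose in both lines. It had 6.30, 4.54 and 4.92 CPM, 13.7 CPM and 4.25 CPM in knockout IFNγ libraries of batches 1, 2 and 3, against 2.02 to 2.89 CPM in knockout vehicle libraries. In wild-type cells it had 7.96, 10.6 and 11.7 CPM, 26.0 CPM and 24.4 CPM with IFNγ, against 1.57 to 3.64 CPM with vehicle. All IFNγ libraries lay above all vehicle libraries of their line, and the batch 2 library was the highest in both IFNγ groups. The rise was 1.37 ± 0.29 log2 in knockout cells (2.58-fold, edgeR adjusted p = 0.00094) and 2.68 ± 0.30 log2 in wild-type cells (6.40-fold, adjusted p = 4.24e-07), on 2814 reads over all 20 libraries. A noncoding gene overlaps 337 of its exonic bases on the opposite strand, with 113 reads, and since the strand setting of the counting is not given, reads of the pair may have been assigned either way.

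Ccng1 encodes cyclin G1, which recruits a phosphatase to MDM2. It had 67.0, 87.3 and 79.6 CPM, 37.4 CPM and 78.0 CPM in knockout IFNγ libraries of batches 1, 2 and 3, against 47.7, 49.0 and 46.0 CPM, 46.5 CPM and 32.8 CPM with vehicle. The wild-type levels were 69.6, 64.0 and 65.0 CPM, 96.0 CPM and 88.4 CPM with IFNγ, against 42.0 to 50.7 CPM with vehicle. The groups overlapped in knockout cells through the batch 2 library alone, where IFNγ lay below vehicle (−0.31 log2), and did not overlap in wild-type cells. Ccng1 rose by 0.65 log2 in knockout cells (1.57-fold, edgeR adjusted p = 0.00785) and by 0.75 log2 in wild-type cells (1.69-fold, adjusted p = 0.0017). The knockout call was lost in batches 2 and 3 alone (0.51 log2, edgeR adjusted p = 0.274).

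Of the 3 genes for cell death proteins, Pmaip1 differed most between the lines under IFNγ. It encodes NOXA, a BH3-only protein that neutralizes the survival protein MCL1. Pmaip1 had 73.3, 68.6 and 72.6 CPM, 156 CPM and 164 CPM in knockout IFNγ libraries of batches 1, 2 and 3, against 81.9, 83.5 and 89.8 CPM, 45.6 CPM and 35.4 CPM with vehicle. In wild-type cells it had 226, 230.4 and 213 CPM, 326 CPM and 376 CPM with IFNγ, against 73.8, 74.7 and 65.0 CPM, 67.0 CPM and 89.3 CPM with vehicle. The wild-type groups stood clear of each other, and in knockout cells the direction depended on the batch. Pmaip1 rose by 1.87 ± 0.28 log2 in wild-type cells (3.65-fold, edgeR adjusted p = 1.33e-05). In knockout cells the change was 0.57 ± 0.28 log2 over all batches (edgeR adjusted p = 0.107). It was −0.23 log2 in batch 1 alone (edgeR adjusted p = 0.00142) and 1.96 log2 in batches 2 and 3 alone (adjusted p = 0.000209), so both directions passed the test within batches.

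Bbc3 encodes PUMA, a BH3-only protein that binds all the main survival proteins of the BCL2 family. It had 18.8, 21.4 and 20.4 CPM in knockout IFNγ libraries of batch 1, 145 CPM in that of batch 2 and 33.1 CPM in that of batch 3, against 34.3, 39.9 and 40.8 CPM, 40.4 CPM and 48.7 CPM with vehicle. Wild-type libraries had 12.7, 14.7 and 15.1 CPM, 69.8 CPM and 26.7 CPM with IFNγ, against 15.9, 12.3 and 16.5 CPM, 20.8 CPM and 26.5 CPM with vehicle. The batch 2 library was by far the highest of each IFNγ group, 2.82 log2 above batch 1 in knockout and 2.26 log2 above it in wild-type cells. Those 2 libraries also held the most Malat1, 1446 and 1514 CPM, and its part in the Bbc3 level was not tested. Neither line's change was called (−0.31 ± 0.32 log2 in knockout and 0.27 ± 0.32 log2 in wild-type cells, edgeR adjusted p = 0.45 and 0.487). Without the batch 2 IFNγ library the knockout change was −0.69 log2 (edgeR adjusted p = 0.0456), and in batch 1 alone it was −0.90 log2 (adjusted p = 1.31e-08).

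Bax, the effector that permeabilizes the outer mitochondrial membrane, had 75.2, 69.6 and 64.4 CPM, 79.5 CPM and 41.4 CPM in knockout IFNγ libraries of batches 1, 2 and 3. It had 64.8, 66.9 and 64.0 CPM, 77.9 CPM and 94.3 CPM in knockout vehicle libraries. The wild-type levels were 41.1, 47.7 and 47.9 CPM, 39.5 CPM and 44.5 CPM with IFNγ, against 52.4, 44.6 and 55.2 CPM, 56.0 CPM and 51.7 CPM with vehicle. IFNγ and vehicle libraries overlapped in both lines and the change was not called in either (−0.16 ± 0.15 log2 in knockout and −0.23 ± 0.15 log2 in wild-type cells, edgeR adjusted p = 0.406 and 0.193).

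The remaining targets act in metabolism and autophagy. Trp53inp1, whose protein serves p53 activity and autophagy, was with Gadd45a one of the 2 genes of lowest mean CPM in every group. Trp53inp1 had 2.96, 2.92 and 2.44 CPM, 20.4 CPM and 7.27 CPM in knockout IFNγ libraries of batches 1, 2 and 3, against 0.469, 0.642 and 0.474 CPM, 4.04 CPM and 1.09 CPM with vehicle. In wild-type cells it had 4.17, 3.44 and 3.10 CPM, 15.8 CPM and 9.47 CPM with IFNγ, against 1.02, 0.645 and 0.413 CPM, 5.36 CPM and 4.20 CPM with vehicle. Levels were highest in batch 2 in each of the 4 groups, so the groups overlapped across batches, while within every batch IFNγ lay above vehicle by 1.08 to 2.29 log2. Trp53inp1 rose by 2.43 ± 0.28 log2 in knockout cells (5.38-fold, edgeR adjusted p = 1.88e-06) and by 1.89 ± 0.28 log2 in wild-type cells (3.70-fold, adjusted p = 9.37e-06). Without the batch term the wild-type call was lost (edgeR adjusted p = 0.0961).

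Sesn2 encodes sestrin 2, a leucine sensor that restrains mTORC1. It had 69.9, 66.2 and 68.2 CPM, 34.8 CPM and 35.8 CPM in knockout IFNγ libraries of batches 1, 2 and 3, against 71.3, 73.0 and 69.6 CPM, 32.4 CPM and 44.1 CPM with vehicle. Wild-type libraries had 70.4, 74.0 and 68.4 CPM, 90.2 CPM and 75.3 CPM with IFNγ, against 68.2, 68.8 and 72.5 CPM, 43.1 CPM and 48.3 CPM with vehicle. With TMM scaling the 4 groups lay within 66.2 to 74.0 CPM in batch 1. In batches 2 and 3 the wild-type IFNγ libraries then lay above all others. On plain library totals the wild-type library of batch 2 had 57.2 CPM with IFNγ and 47.1 CPM with vehicle. In batch 3 these were 57.5 and 52.3 CPM, and the batch 1 libraries held 69.97 to 77.99 CPM. The change was −0.08 log2 in knockout cells (edgeR adjusted p = 0.736) and 0.40 log2 in wild-type cells (adjusted p = 0.0534); the second was called in batches 2 and 3 alone (0.87 log2, adjusted p = 0.0226).

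**Figure D3:**
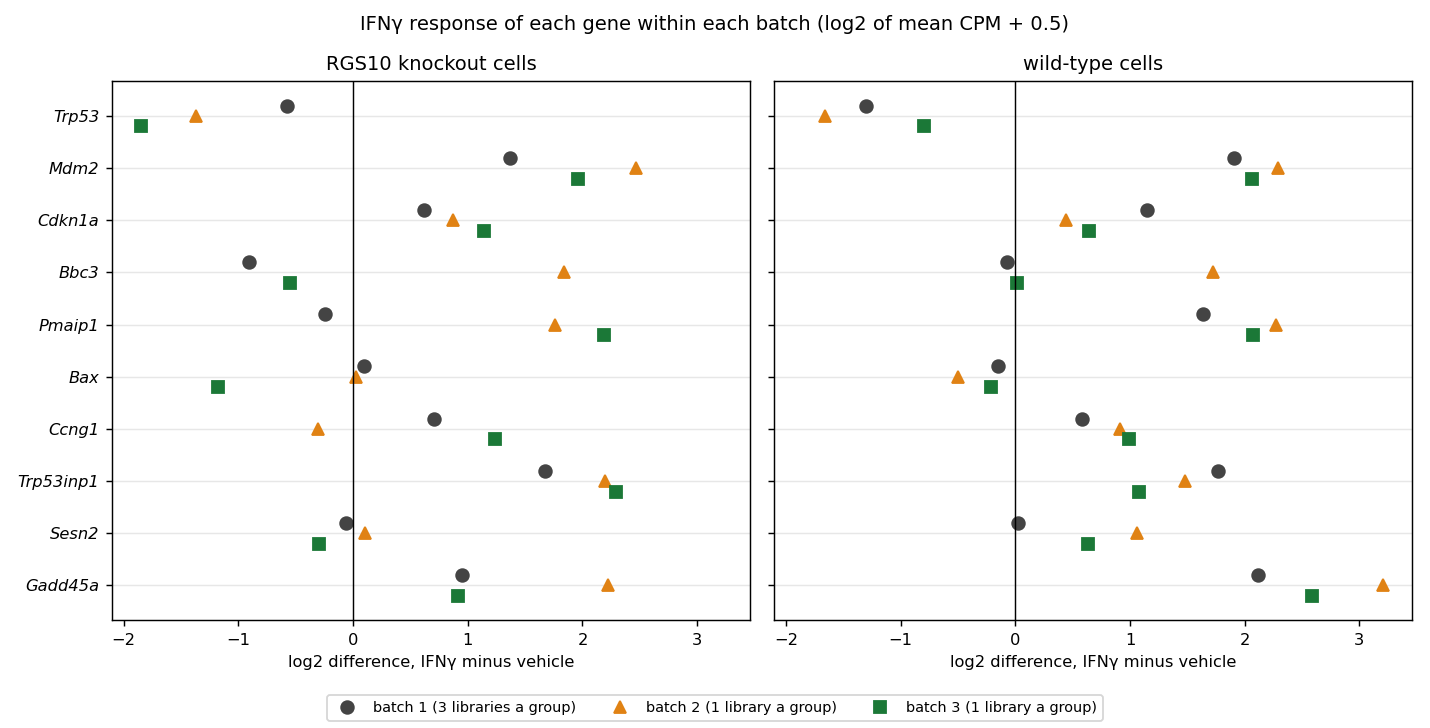
Log2 difference of mean CPM + 0.5, IFNγ over vehicle, for each gene within batch 1 (3 libraries a group), batch 2 and batch 3 (1 library a group each), in knockout and wild-type cells. On these TMM-scaled values Trp53, Mdm2, Cdkn1a, Trp53inp1 and Gadd45a keep their sign in all 3 batches of both lines, and Pmaip1 and Bbc3 do not in knockout cells.

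With vehicle, 3 of the 10 genes were higher and none lower in knockout than in wild-type cells, where edgeR called 27.3% of all genes (12.5% higher, 14.8% lower). Bbc3 was higher at 40.8 ± 5.1 CPM in knockout and 18.4 ± 5.4 CPM in wild-type cells (SD, n = 5 each; 1.23 ± 0.32 log2, edgeR adjusted p = 0.00664). Bax was higher at 73.6 ± 12.9 CPM in knockout and 52.0 ± 4.5 CPM in wild-type cells (0.50 ± 0.15 log2, edgeR adjusted p = 0.0167), and Cdkn1a at 82.7 ± 8.4 and 65.7 ± 14.5 CPM (0.35 ± 0.12 log2, adjusted p = 0.029). Bbc3 and Bax were the 2 genes whose knockout and wild-type vehicle libraries did not overlap, against 24.9% of all genes. Each of the 3 calls was lost in some settings: that of Bbc3 without a batch term and in batches 2 and 3 alone (edgeR adjusted p = 0.154 and 0.378), and that of Bax without the batch 3 knockout library (0.34 log2, adjusted p = 0.0828), in batches 2 and 3 alone and on plain library totals (adjusted p = 0.239 and 0.0574). The Cdkn1a difference was 0.54, 0.24 and −0.11 log2 in batches 1, 2 and 3, and its call was lost in 11 of 29 settings. Trp53, at 421 ± 35 CPM in knockout and 339 ± 95 CPM in wild-type cells, was not called (0.38 ± 0.16 log2, edgeR adjusted p = 0.0812).

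Under IFNγ, 2 of the 10 genes were higher and 3 lower in knockout than in wild-type cells, where edgeR called 39.0% of all genes (2754 higher and 2609 lower). On plain library totals 62.3% of all calls here were increases, against 51.4% with TMM. Pmaip1 was lower at 107 ± 49 CPM in knockout and 274 ± 72 CPM in wild-type cells (SD, n = 5 each; −1.38 ± 0.28 log2, edgeR adjusted p = 0.000549), with −1.64, −1.06 and −1.19 log2 in batches 1, 2 and 3. It was the 1 gene of the 10 whose knockout and wild-type IFNγ libraries did not overlap, against 15.1% of all genes, and the 1 whose call held in all 29 settings. Gadd45a was lower at 6.75 ± 3.99 CPM in knockout and 16.1 ± 8.4 CPM in wild-type cells (−1.23 ± 0.28 log2, edgeR adjusted p = 0.00184), and lower in each batch. Sesn2 was lower by the same test (−0.56 ± 0.18 log2, edgeR adjusted p = 0.0159), but the difference was −0.06 log2 in batch 1 and −1.36 and −1.06 log2 in batches 2 and 3, and leaving out any single IFNγ library of batch 2 or 3 ended the call (adjusted p = 0.0518 to 0.0798).

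Trp53 was higher under IFNγ at 228 ± 92 CPM in knockout and 140.4 ± 38.5 CPM in wild-type cells (SD, n = 5 each; 0.65 ± 0.16 log2, edgeR adjusted p = 0.00275). The difference was 0.83, 0.80 and −0.12 log2 in batches 1, 2 and 3, and the call was lost in batches 2 and 3 alone and without a batch term (edgeR adjusted p = 0.517 and 0.06). Bax was higher at 66.0 ± 14.9 CPM in knockout and 44.1 ± 3.8 CPM in wild-type cells (0.57 ± 0.15 log2, edgeR adjusted p = 0.00502). Its difference was 0.61, 1.00 and −0.10 log2 in batches 1, 2 and 3. Mdm2 was not called (−0.38 ± 0.16 log2, edgeR adjusted p = 0.0645), but it was in batch 1 alone (−0.73 log2, edgeR adjusted p = 7.92e-14). The knockout IFNγ libraries of batch 1 had an SD of 0.0436 log2 for Mdm2, against 0.585 log2 over all 5. In batches 2 and 3 the lines differed by 0.13 and 0.06 log2. Those 2 values depended on the scaling. On plain library totals Mdm2 had 339 CPM in knockout and 221 CPM in wild-type IFNγ cells of batch 2, and 309 and 258 CPM in batch 3. The calls of Bax, Gadd45a and Trp53 did not hold in batches 2 and 3 alone, where 2 of the 10 genes, both lower, were called beside 13.4% of all genes.

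**Figure D4:**
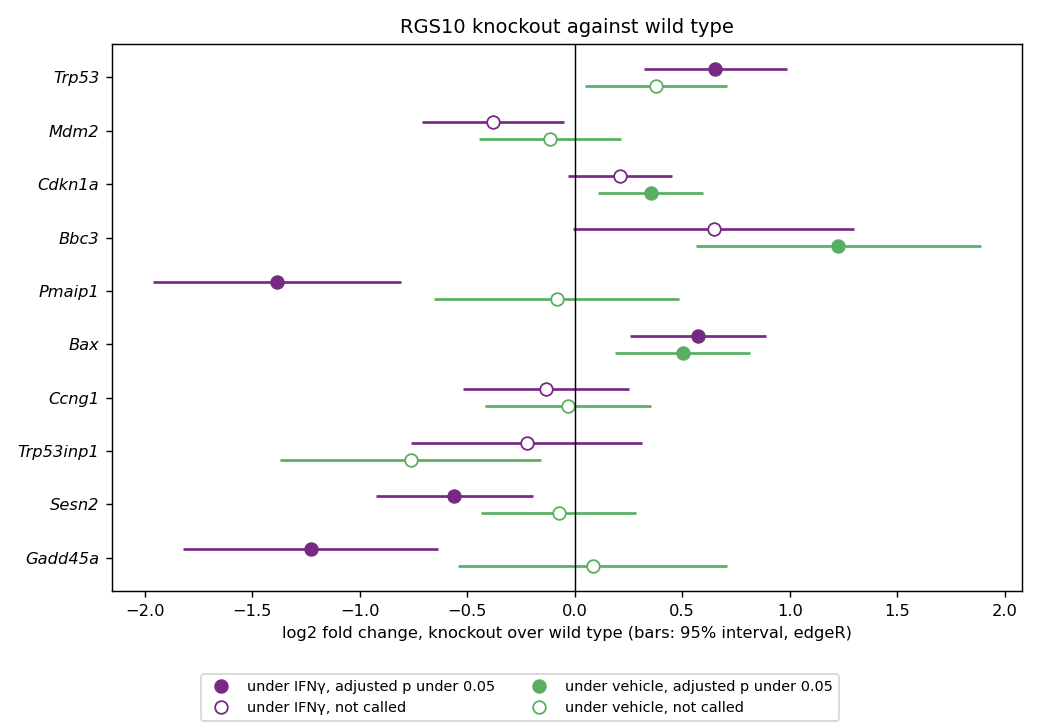
Log2 fold change of each gene, RGS10 knockout over wild type, under IFNγ and with vehicle, with 95% intervals from edgeR; filled points passed an adjusted p of 0.05. Bax lies above 0 under both treatments, and the intervals of Pmaip1 and Gadd45a lie below 0 under IFNγ and include 0 with vehicle.

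The change with IFNγ in knockout cells minus that in wild-type cells was called for none of the 10 genes by edgeR, where 6.50% of all genes were called. Pmaip1 and Gadd45a were the 2 with an unadjusted p under 0.05. The difference was −1.30 ± 0.39 log2 for Pmaip1 (edgeR adjusted p = 0.0502) and −1.31 ± 0.41 log2 for Gadd45a (adjusted p = 0.0617). DESeq2 called both genes (adjusted p = 0.0176 and 0.0242) and limma-voom called none of the 10. The Gadd45a difference was −1.17, −0.998 and −1.67 log2 in batches 1, 2 and 3, and that of Pmaip1 was −1.89, −0.51 and 0.13 log2. In batch 1 alone edgeR called 7 of the 10 genes, 2 with a higher and 5 with a lower response in knockout cells, beside 51.3% of all genes in that fit. Among them were Trp53 (0.76 log2), Mdm2 (−0.51 log2) and Cdkn1a (−0.50 log2), whose differences had the opposite sign in batches 2 and 3 alone (−0.41, 0.02 and 0.43 log2). The 5 comparisons share libraries and are not independent of each other.

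Other genes of the pathway were taken from 4 lists. Of 13 tested regulators of p53, 1 rose and 5 fell with IFNγ in knockout cells, and 3 rose and 6 fell in wild-type cells. The 6 and 9 called of 13 lie near the shares of all genes called, 43.2% in knockout and 58.9% in wild-type cells. Mdm4, which restrains p53 beside MDM2, rose by 0.53 log2 in knockout cells (edgeR adjusted p = 0.0456). That call held in 14 of 29 alternative settings, with 0.0331 log2 in batch 1 alone and 1.27 log2 in batches 2 and 3 alone (adjusted p = 0.726 and 0.00546). The checkpoint kinase gene Chek2 fell by 1.64 log2 and Atr, the kinase gene of the replication stress checkpoint, by 1.72 log2 in wild-type cells (edgeR adjusted p = 3.22e-08 and 8.26e-07), and Atr fell by 1.17 log2 in knockout cells (adjusted p = 0.000134). The kinase gene Hipk2 rose by 0.95 log2 in wild-type cells (edgeR adjusted p = 0.00176), a call lost in batches 2 and 3 alone. Trp63, a relative of p53, had no read in any library and Trp73 averaged at most 0.0628 CPM in a group; the pseudogene Trp53-ps had 36 reads over all libraries.

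Among other p53 targets that act in arrest and feedback, 5 of 9 rose and 2 fell with IFNγ in each line. Over all genes 21.4% rose and 21.8% fell in knockout cells, and 29.0% rose and 29.9% fell in wild-type cells. Plk2, a kinase gene, rose by 1.82 log2 in knockout and 2.97 log2 in wild-type cells (edgeR adjusted p = 9.28e-06 and 1.43e-08). Psrc1, a spindle gene, fell by 1.25 log2 in knockout and 2.61 log2 in wild-type cells (adjusted p = 7.06e-05 and 6.63e-09). The stress cytokine gene Gdf15 rose by 4.82 log2 in wild-type cells (edgeR adjusted p = 6.44e-07). The phosphatase gene Ppm1d, which acts in feedback on p53, fell by 0.50 log2 in knockout and 0.73 log2 in wild-type cells (adjusted p = 0.00697 and 0.000172). The knockout calls of Psrc1 and Ppm1d were lost in batches 2 and 3 alone. Of 8 tested death genes, 3 rose and 1 fell in knockout cells, and 2 rose and 2 fell in wild-type cells, with the death receptor gene Fas higher by 1.14 and 0.72 log2 in knockout and wild-type cells (adjusted p = 0.000688 and 0.0133). The wild-type Fas call was lost in 5 of 29 settings, among them plain library totals (0.43 log2), batch 1 alone (0.305 log2, edgeR adjusted p = 0.093) and without the wild-type IFNγ library of batch 2 (0.53 log2) or batch 3 (0.50 log2). Of 12 repair and metabolism genes, 1 rose and 6 fell in knockout cells, and 2 rose and 7 fell in wild-type cells. Sesn1, the sestrin relative of Sesn2, fell by 1.06 log2 in knockout and 2.38 log2 in wild-type cells (edgeR adjusted p = 1.94e-05 and 5.58e-10). Of the 29 targets in these 3 lists, 9 rose and 9 fell in knockout cells (31.0% each way), and 9 rose (31.0%) and 11 fell (37.9%) in wild-type cells. On plain library totals the knockout counts were 5 and 9, where 15.4% of all genes rose and 24.6% fell. The difference of the responses, knockout minus wild type, was called higher for 3 of the 29 and lower for 3 (10.3% each way, edgeR). Over all genes 3.64% were called higher and 2.86% lower. In batches 2 and 3 alone the counts were 1 and 0, beside 0.728% and 0.119% of all genes.

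The median log2 change with IFNγ was 0.42 in knockout and 0.88 in wild-type cells for the arrest and feedback list, and −0.55 and −0.62 for the repair and metabolism list. It was 0.02 and −0.03 for the death list and −0.21 and −0.19 for the regulators. Between the lines with vehicle, 2 regulators were higher and 4 lower in knockout cells, and 3 higher and 5 lower of the 29 other targets tested, beside 12.5% of all genes called higher and 14.8% lower. Plain library totals gave 1 and 2 regulators and 2 and 2 other targets, beside 11.5% of all genes called higher and 11.4% lower. Batches 2 and 3 alone gave none of either, beside 1.5% and 4.43% of all genes. Under IFNγ, 6 regulators were higher and 2 lower in knockout cells, and 2 higher and 7 lower of the other targets, where 39.0% of all genes were called (2754 higher and 2609 lower). On plain library totals 4 of the other targets were higher and 5 lower, beside 22% and 13.3% of all genes, so the balance depended on the scaling. Plk2 was higher by 1.62 log2 and Sesn1 lower by 1.08 log2 in knockout cells with vehicle (edgeR adjusted p = 4.07e-05 and 1.67e-05), and Gdf15 was lower by 2.14 log2 in knockout cells under IFNγ (a change of −2.14, adjusted p = 0.00176). The vehicle calls of Plk2 and Sesn1 were lost in batches 2 and 3 alone.

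p21 and the DREAM complex repress cell cycle genes when p53 is active, and 15 such genes were listed. With IFNγ 11 of the 15 fell and none rose in knockout cells (median −0.77 log2), and all 15 fell in wild-type cells (median −2.04 log2), beside 21.8% and 29.9% of all genes. Aurka, a mitotic kinase gene, fell by 0.73 log2 in knockout and 2.53 log2 in wild-type cells (edgeR adjusted p = 0.000212 and 4.72e-11), and Bub1b, a spindle checkpoint gene, by 0.96 and 1.81 log2 (adjusted p = 4.21e-05 and 9.3e-09). Under IFNγ all 15 were higher in knockout than in wild-type cells (median 1.55 log2), where 2754 of 13755 genes were. The response of 10 was called higher in knockout cells by the test of the difference (edgeR), beside 3.64% of all genes. That count was 5 on plain library totals, 7 with the replicate block and 5 in batches 2 and 3 alone, beside 2.36%, 2.09% and 0.728% of all genes, and 15 in batch 1 alone, beside 29.7%. In batch 1 alone the counts with IFNγ were 12 lower and 1 higher of 15 in knockout cells and 15 lower of 15 in wild-type cells, where 28.4% and 36.7% of all genes were lower. The difference of the Cdkn1a responses was not called (−0.14 log2, 95% interval −0.48 to 0.20, edgeR adjusted p = 0.674).

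Genes of the integrated stress response, a further route to Gadd45a, Pmaip1, Sesn2 and Bbc3 through ATF4 and CHOP, were listed beside them. Of 9 tested, 4 rose and 2 fell with IFNγ in knockout cells (median 0.48 log2), and 7 rose and 1 fell in wild-type cells (median 1.25 log2), beside 43.2% and 58.9% of all genes called either way. Atf3 rose by 1.95 log2 in knockout and 2.85 log2 in wild-type cells (edgeR adjusted p = 4.29e-06 and 1.75e-08), and Ddit3, the gene of CHOP, rose by 3.02 log2 in wild-type cells (adjusted p = 3.89e-08). Asns of the same list was lower with IFNγ, at −0.75 log2 in knockout and −1.12 log2 in wild-type cells (edgeR adjusted p = 0.0109 and 0.000287). Chac1 was lower in knockout cells (−1.235 log2, edgeR adjusted p = 0.00234). The responses of Atf4 and Ddit3 were lower in knockout than in wild-type cells by 1.24 and 1.72 log2 (differences of −1.24 and −1.72, edgeR adjusted p = 0.00435 and 0.00896), where 2.86% of all genes were called lower. Both calls were lost in batches 2 and 3 alone (differences of −1.83 and −1.15 log2, edgeR adjusted p = 0.0573 and 0.425), and that of Ddit3 also without a batch term (adjusted p = 0.102). With vehicle 7 of the 9 were higher and none lower in knockout cells (median 1.00 log2), beside 12.5% and 14.8% of all genes; in batches 2 and 3 alone 2 of the 9 were higher, beside 5.93% of all genes called either way. The smallest p-values were those of Trib3 at 1.60 log2 and Ppp1r15a at 1.30 log2 (adjusted p = 1.8e-06 and 0.000357). Of 9 other BCL2 family genes, 5 rose and 1 fell in knockout cells with IFNγ, and 7 rose and 1 fell in wild-type cells, beside 43.2% and 58.9% of all genes called either way. The survival gene Bcl2l1 rose by 1.71 log2 in knockout and 1.69 log2 in wild-type cells (edgeR adjusted p = 5.49e-07 and 2.12e-07), and the BH3-only gene Bmf fell by 1.70 and 1.59 log2 (adjusted p = 0.00106 and 0.00107). What part these routes have in the levels of the 10 genes was not tested.

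**Figure D5:**
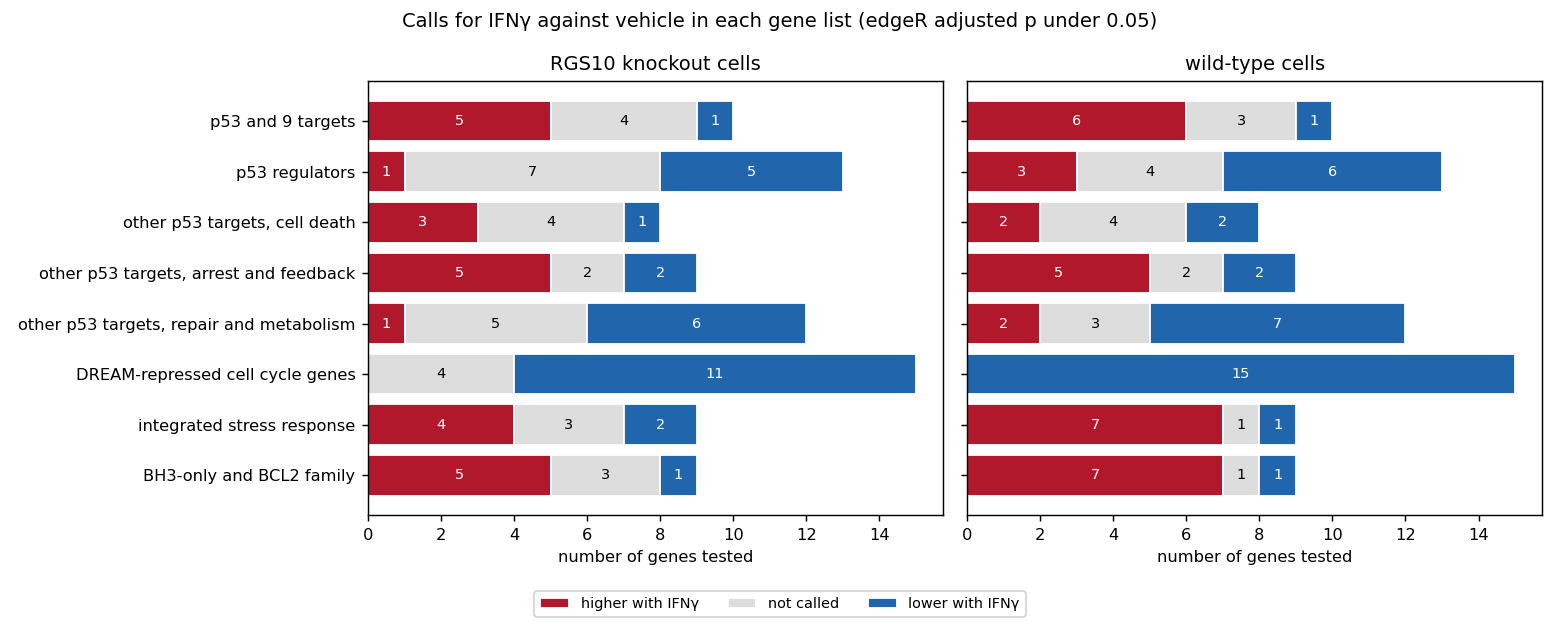
Number of genes called higher, called lower or not called for IFNγ over vehicle in each gene list, in knockout and wild-type cells (edgeR adjusted p under 0.05). All 15 DREAM-repressed cell cycle genes fell in wild-type cells and 11 of 15 in knockout cells.

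Per kilobase of exon, Trp53 was the most abundant of the 10 in both vehicle groups, at 104 CPM per kb in knockout and 83.7 CPM per kb in wild-type cells on average. In wild-type vehicle cells it was followed by Bax (33.0), Pmaip1 (27.1), Cdkn1a (18.5), Sesn2 (17.3), Mdm2 (15.2), Ccng1 (12.9), Bbc3 (8.66), Gadd45a (1.34) and Trp53inp1 (0.360 CPM per kb). The ranges over libraries overlapped between the neighbours Bax and Pmaip1, from Cdkn1a through Ccng1, and between Ccng1 and Bbc3, and Trp53 lay above all others in every library. In wild-type IFNγ cells the order was led by Pmaip1 at 100.4 and Mdm2 at 61.9 CPM per kb, above Trp53 at 34.7 CPM per kb. In knockout IFNγ cells Trp53 (56.4), Mdm2 (49.5), Bax (41.9), Cdkn1a (40.3) and Pmaip1 (39.1 CPM per kb) had overlapping ranges. The genes with the most similar profile to Trp53 over the 20 libraries, by root mean square difference of centred log2 CPM, were Nop16, Ddx1 and Rbbp7 (0.13, 0.15 and 0.15 log2). Those nearest to Mdm2 were Klf6, Cndp2 and Arid3b (0.22, 0.26 and 0.26 log2), and those nearest to Cdkn1a were Sertad2, Tspyl2 and Map7d1 (0.18, 0.19 and 0.20 log2).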

How the data were processed

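Raw counts per gene for 20 libraries were used as deposited. Per the submitters' processing notes, FastQC, Trim Galore, STAR and DESeq2 were used with build GRCm39; the sources used here do not name the counting tool, the strand setting or the annotation release. GENCODE vM21 gave symbols for 51948 of 56941 IDs (91.2%) and exon lengths, and promoter sequences came from RefSeq (GRCm38.p6). Library sizes were scaled by TMM, and filterByExpr left 13755 genes. edgeR 4.0.16 (R 4.3.3) fitted a robust quasi-likelihood model with group and batch (14 residual degrees of freedom; biological coefficient of variation 24.2%), with Benjamini-Hochberg adjustment over all tested genes of a comparison and a threshold of 0.05. "Rose", "fell", "higher" and "lower" for changes refer to such calls. Log2 changes are ± SE. Alternatives were RLE factors, plain totals, no filter, DESeq2 1.42.0, limma-voom 3.58.1, no batch term, replicate block, batches apart and each library left out. Same-numbered libraries of batch 1 did not deviate together (correlations −0.09 to 0.07), so numbers were not taken as pairs; no replicates were copies. From each list of other genes the rule named up to 2 called genes each way with the smallest p. The text gives only a part of the genes so named. The 10 genes and the lists were chosen with earlier results of these data known. The model was also run on simulated counts, with changes planted in the wild-type IFNγ libraries and no batch effect. That run does not cover differences between batches.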

Additional observations from a re-analysis of the deposited data

Results flagged for a closer look

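In 8 of the 40 sets of 5 libraries (10 genes in 4 groups) 1 library stood far from the other 4 in CPM by Dixon's criterion. It flags about 1 set in 20 by chance where the 5 values are drawn alike. Here 3 of the 5 share batch 1 and the sets share libraries, so that rate is no baseline for the 8. The library was that of batch 2 in 6 sets and that of batch 3 in 2. Among the IFNγ libraries of batch 2, Bbc3 was the highest of its group in knockout cells at 145 CPM and in wild-type cells at 69.8 CPM, and Trp53inp1 (20.4 CPM) and Gadd45a (13.7 CPM) were the highest of the knockout group. In the knockout vehicle group the batch 2 library had the highest Trp53inp1 at 4.04 CPM and the lowest Trp53 at 359 CPM. The batch 3 library of that group had the highest Mdm2 at 89.9 CPM and the lowest Ccng1 at 32.8 CPM. Batches 2 and 3 hold 1 library per group each, so a single library cannot be told apart from its batch.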

How the results depend on the processing

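Of the 6 calls with IFNγ in knockout cells 5 held in all 29 alternative settings, and 5 of the 7 in wild-type cells did; between the lines 0 of 3 with vehicle and 1 of 5 under IFNγ did. Of calls of other genes named by the rule, 11 of 22 with IFNγ in knockout and 16 of 24 in wild-type cells held throughout. Between the lines 1 of 18 with vehicle and 7 of 20 under IFNγ did, and 0 of 11 for the difference of responses. In batches 2 and 3 alone the sign changed for Bbc3 (knockout response, 0.72 log2), Mdm2 (knockout against wild type with vehicle 0.058 and under IFNγ 0.0784, difference of responses 0.0203), Gadd45a (vehicle, −0.44), and the differences of responses of Trp53 (−0.41), Cdkn1a (0.43) and Bax (−0.21); Rgs10 (knockout response, 0.0571) and Ep300 (wild-type response, −0.14) did so too. In batch 1 alone the sign changed for Bbc3 (wild-type response, −0.0831), Dram1 (wild-type response, −0.0703), Pmaip1 (knockout response −0.23, vehicle difference 0.25), Bax (knockout response, 0.12), Ccng1 (vehicle 0.10, IFNγ 0.26, difference of responses 0.16) and Sesn2 (vehicle, 0.0198). Without a batch term it changed for Bbc3 (knockout response, 0.23) and Trp53inp1 (lines under IFNγ, 0.00265), and on plain library totals for Ccng1 (0.00316 with vehicle, 0.0323 under IFNγ, 0.0292 for the difference of responses). In all, 37 of 4408 values of single genes changed sign, and 3 of them were called, those of Pmaip1 and of Ccng1 under IFNγ in batch 1 alone. The cause was not tested.

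Genes called moved by over 1.5 times in these settings. With batches 2 and 3 alone there were 5101 (wild-type response), 847 (lines, vehicle), 1920 (lines, IFNγ) and 121 (difference of responses), with fewer libraries; in batch 1 alone 8072, 9580 and 7096 for the last 3. Without a batch term there were 3897 (knockout response), 2318 (lines, vehicle) and 138 (difference). For the difference plain totals gave 537, DESeq2 1480 and the replicate block 530; the block moved no call count of the 10 genes. Of the 10 genes, lines with vehicle gave 1 call on plain totals, 1 without a batch term, 6 in batch 1 and 0 in batches 2 and 3; lines under IFNγ gave 3 without a batch term and 2 in batches 2 and 3; the difference gave 2 without the filter, 2 with DESeq2 and 7 in batch 1.

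Leaving out each library in turn gave 4911 to 6571 genes called with IFNγ in knockout and 7593 to 8624 in wild-type cells, 4613 to 5689 between the lines under IFNγ and 3212 to 4452 with vehicle, and 542 to 1448 for the difference. Of the 10 genes it called 6 to 7, 7 to 8, 4 to 6, 2 to 4 and 0 to 2 in that order. Signs changed for Bbc3 (wild-type response, −0.00295 to 0.37 log2), Bax (knockout response −0.23 to 0.0128, difference −0.00273 to 0.25), Ccng1 (vehicle −0.068 to 0.0866, IFNγ −0.22 to 0.0822, difference −0.22 to 0.12), Pmaip1 (vehicle, −0.23 to 0.17), Sesn2 (vehicle, −0.12 to 0.0427) and Gadd45a (vehicle, −0.071 to 0.24). Batches 2 and 3 hold 1 library per group, and Trp53inp1 and Gadd45a rest on few reads.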
